A study of Bos taurus with 16 samples.

Results

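The genes examined here serve the growing oocyte and its coat, and were followed through early cattle development. They are the growth factors *GDF9* and *BMP15*, the zona pellucida genes *ZP2*, *ZP3* and *ZP4*, the transcription factors *FIGLA* and *NOBOX*, and the receptor gene *KIT*. The genes were chosen by name, as the loci of the deposited table carrying these symbols, 8 of 27393 loci. Each symbol had 1 locus. The study sequenced single bovine oocytes and single embryos that had matured or developed in the animal. There were 2 samples at each of 8 stages: mature oocytes (MII), 2-, 4-, 8- and 16-cell embryos (2C, 4C, 8C and 16C), early morulae (EM), compact morulae (CM) and blastocysts (BL). The labels name no treatment or genetic alteration, and they give neither breed nor animal. Embryonic genome activation (EGA), the start of transcription from the embryo's own genome, is placed by the study between 4C and 8C, so MII, 2C and 4C (6 samples) are called before EGA and the other stages (10 samples) after it.

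GDF9 and BMP15 are secreted members of the transforming growth factor beta family that the oocyte sends to the surrounding granulosa and cumulus cells. The zona proteins form the extracellular coat that sperm bind, FIGLA and NOBOX switch on zona and growth factor genes in the young oocyte, and KIT is the receptor through which the oocyte receives KIT ligand from granulosa cells. A mature oocyte is almost silent in transcription, so its messages are mainly ones it has stored, and many stored messages are cleared in the first cleavages.

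Transcript abundance is given as the authors' normalised read count, in which the reads on a locus are divided by a size factor for the library and not by transcript length. Levels were therefore compared between stages of the same gene and not between genes. Recovered reads per library ranged from 607672 to 3379426, and 3 reads, used as the detection floor, corresponded to 1.09 to 5.40 normalised reads. The floor covers counting error only. Nothing in the labels says that the samples of a stage came from separate animals, so p-values measure the spread between these samples. In the comparison across EGA this spread includes the differences between the stages of a period. Contrasts of 2 stages use a spread shared over all 8 stages. The values depend on the sampled embryo as a whole, in which fewer cells of a type and less RNA per cell cannot be told apart. The labels were checked against marker genes of the oocyte. Their summed value was 16493 and 26264 in the MII libraries and 25.4 and 44.4 in the BL libraries. *GDF9* was among these markers, and *H1FOO* alone made up 14759 and 23580 of the MII sums. Not all of the markers were highest in MII, as *ZAR1* had 79.4 and 30.8 there and 183 and 197 in 4C. The 8C libraries stood apart from each other. Their log2 values correlated at r = 0.73 over 9670 loci, against 0.84 to 0.93 within the other stages. The oocyte markers summed to 157 in 8C replicate 1 and 2038 in 8C replicate 2, of which *H1FOO* was 30.6 and 1606.

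The growth factor *GDF9* (locus XLOC_063987) was read in all libraries of MII, 2C and 4C and was close to the floor from 16C onward. In MII replicates 1 and 2 it had 73.8 and 123 normalised reads, in 2C 71.2 and 99.99, and in 4C 119 and 72.3. At 8C it was 0 in replicate 1 and 20.6 in replicate 2. The libraries before EGA thus overlapped across the 3 stages, and the 8C libraries fell on either side of the floor. In 16C it had 3.27 and 0, in EM 0 in both, in CM 3.32 and 3.75, and in BL 0 and 3.17, none of these resting on more than 4 reads. The mean was 93.3 ± 24.2 before EGA (SD, n = 6) and 3.42 ± 6.28 after it (SD, n = 10), or 3.66% of the earlier mean. Without 8C replicate 2 the later mean was 1.501, or 1.61%. The order of stage means was MII (98.6 ± 35.0), 4C (95.6 ± 33.0), 2C (85.6 ± 20.3), 8C (10.3 ± 14.6), CM (3.54 ± 0.30), 16C (1.63 ± 2.31), BL (1.58 ± 2.24) and EM (0), each SD over 2 samples. Neighbours among the first 3 overlapped, as did 8C with CM and 16C with BL. In CPM, which scale by the total reads of a library in place of the authors' factors, MII was the lowest of the first 3, at 43.1 against 70.5 in 2C and 72.1 in 4C.

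*BMP15* (locus XLOC_072961), the partner of GDF9, was listed at 0 in all 16 libraries. Its locus lies within an unbroken run of 2578 loci of the table, from XLOC_070641 to XLOC_075156, that are listed at 0 in every library, while the next longest such run holds 98 loci. In all 9075 loci (33.1%) were at 0 throughout. By a reference gene table, 1149 loci of the run are spread over 31 chromosomes, and the run also holds *AKT1*, a kinase of nearly all cells, and *NLRP2*. The value of *BMP15* is accordingly given as listed, with no level, fold or test.

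The zona gene *ZP2* (locus XLOC_043395), whose protein is the part of the coat that is cut after fertilisation, had the largest difference across EGA among the members tested. It had 391 and 569 normalised reads in MII, 482 and 416 in 2C, and 398 and 322 in 4C. At 8C it had 5.40 (3 reads) and 21.8 (19 reads). The 8C libraries lay below every earlier library and above every later one. In 16C and BL all 4 libraries were at 0, where 3 reads would have given 3.04 to 4.85, while EM had 0 and 1.17 and CM 4.43 and 0. The mean was 430 ± 85.4 before EGA and 3.28 ± 6.81 after it, 0.763% of the earlier mean, and without 8C replicate 2 it was 1.22 after it, 0.285%. Stage means followed the order MII (480 ± 126), 2C (449 ± 46.8), 4C (360 ± 54.3) and 8C (13.6 ± 11.6), with CM, EM and the 2 stages at 0 behind. MII overlapped with 2C and with 4C, and 2C and 4C did not overlap. In CPM MII was again the lowest of the 3, at 211 against 371 in 2C and 272 in 4C.

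*ZP4* (locus XLOC_047436), another structural protein of the bovine coat, had more reads after the first cleavage than in the oocyte. It had 48.9 and 86.2 normalised reads in MII, 339 and 265 in 2C, and 281 and 194 in 4C. Both MII libraries lay below all 4 libraries of 2C and 4C. At 8C it was at 0 and 18.4. Unlike *ZP2* it was read at low levels in both libraries of the morula stages, with 6.96 and 9.77 in EM (9 and 25 reads) and 12.2 and 6.57 in CM (11 and 7 reads). In 16C it had 2.18 and 1.62, and in BL 2.03 and 0, all below the floor. The mean was 202 ± 115 before EGA and 5.97 ± 6.04 after it, 2.95% of the earlier mean. By stage mean the order was 2C (302 ± 52.9), 4C (238 ± 61.7), MII (67.5 ± 26.3), CM (9.38 ± 3.98), 8C (9.18 ± 13.0), EM (8.37 ± 1.99), 16C (1.90 ± 0.40) and BL (1.01 ± 1.43). Neighbours overlapped except 4C with MII, MII with CM, and EM with 16C.

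*ZP3* (locus XLOC_043125), which encodes a further coat protein, was read rarely, with 111 reads over the 16 libraries. It had 0.923 and 9.57 normalised reads in MII, 14.2 and 13.1 in 2C, and 18.4 and 7.31 in 4C. After EGA the values lay between 0 and 3.52, and 1 of the 10 libraries reached 3 reads. Because MII replicate 1 held a single read, the groups before and after EGA overlapped.

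The transcription factor genes had few reads. *FIGLA* (locus XLOC_007112) had 60 reads in all, with 2.77 and 0 in MII, 4.75 and 8.03 in 2C, and 4.61 and 16.2 in 4C. It was at 0 in the 8 libraries from 8C to CM, and BL replicate 1 held 3 reads (3.04) and replicate 2 held 1 (1.58). *NOBOX* (locus XLOC_054287) had 57 reads, with 4.62 and 0 in MII, 2.37 and 6.93 in 2C, 7.38 and 12.2 in 4C, and 0 to 3.17 later, where no library reached 3 reads. Both genes had their highest stage mean at 4C, *FIGLA* at 10.4 ± 8.22 and *NOBOX* at 9.78 ± 3.40 (SD, n = 2). In both, the 4C libraries lay above the MII libraries, and the 2C libraries overlapped with 4C in *FIGLA* and with MII in *NOBOX*. Neither gene passed the filter on low counts. In a fit without the filter, 4C differed from MII by 2.34 in *FIGLA* (limma, adjusted p = 0.099) and by 2.15 in *NOBOX* (adjusted p = 0.26).

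*KIT* (locus XLOC_060252) followed another course, with its highest stage means at 4C and BL and low values in between except at 16C. It had 17.5 and 3.19 normalised reads in MII, 31.7 and 80.3 in 2C, and 192 and 110 in 4C, so that both 4C libraries lay above all earlier ones. At 8C it was at 0 and 4.59. At 16C it had 17.4 and 58.2, and it was close to the floor in EM (0 and 1.95) and CM (2.22 and 0). Both BL libraries were high and close together, at 98.4 (97 reads) and 96.7 (61 reads). In order of stage means, 4C (151 ± 57.6) was followed by BL (97.5 ± 1.24), 2C (56.0 ± 34.4), 16C (37.8 ± 28.8), MII (10.4 ± 10.1), 8C (2.29 ± 3.24), CM (1.11 ± 1.57) and EM (0.977 ± 1.38). Neither 4C and BL nor BL and 2C overlapped, and 2C with 16C, 16C with MII and MII with 8C did.

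**Figure D1:**
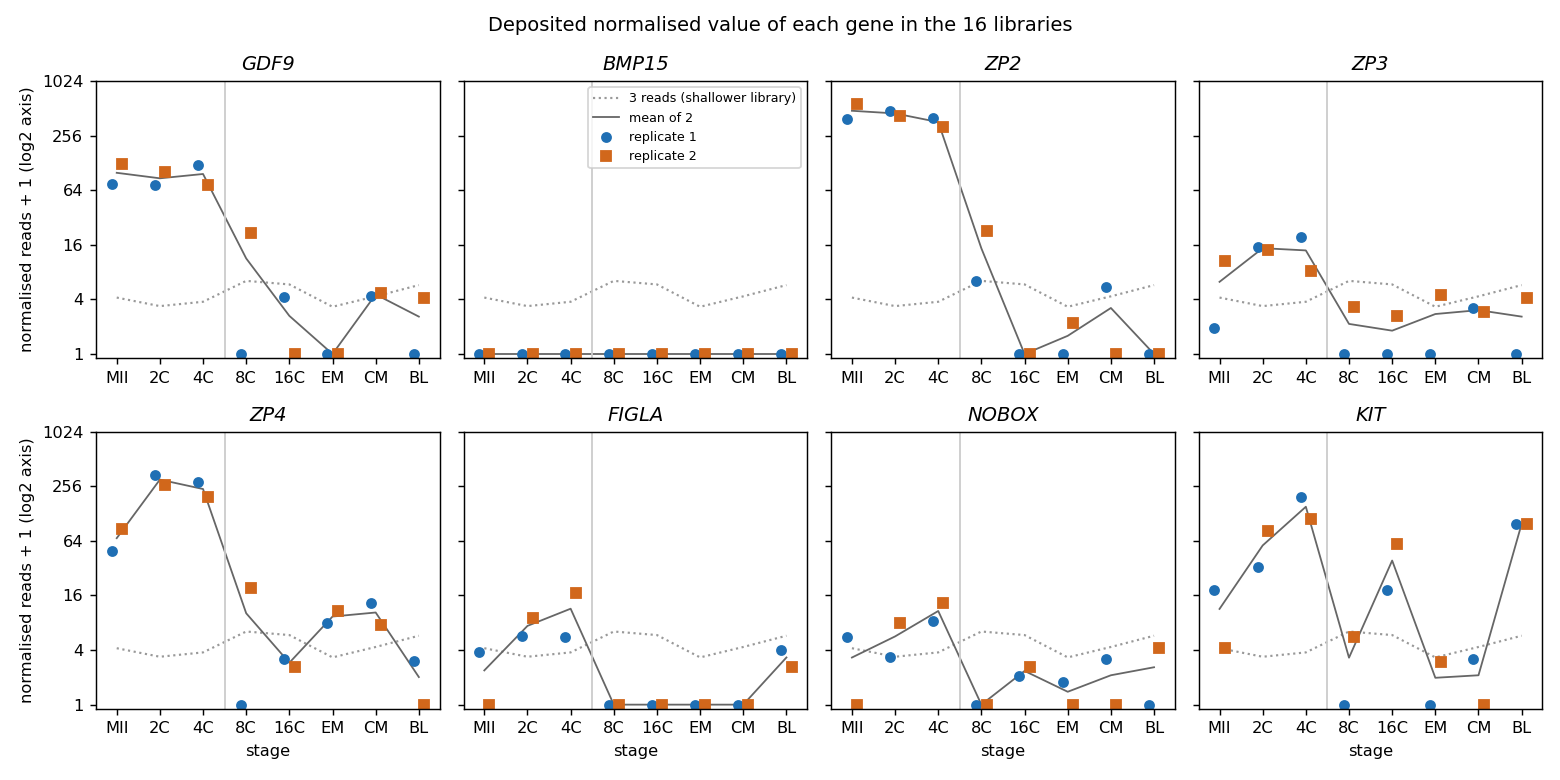
Normalised reads plus 1 (log2 axis) of each of the 8 genes against stage, with replicate 1 as circles, replicate 2 as squares, the mean of the 2 as a line, 3 reads in the shallower library of each stage as a dotted line, and EGA as a vertical line. *GDF9*, *ZP2* and *ZP4* lie high to the left of EGA and near or below the floor to its right, *KIT* returns at 16C and BL, where its libraries are at 98.4 and 96.7, and *BMP15* is at 0 in all 16 libraries.

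**Figure D2:**
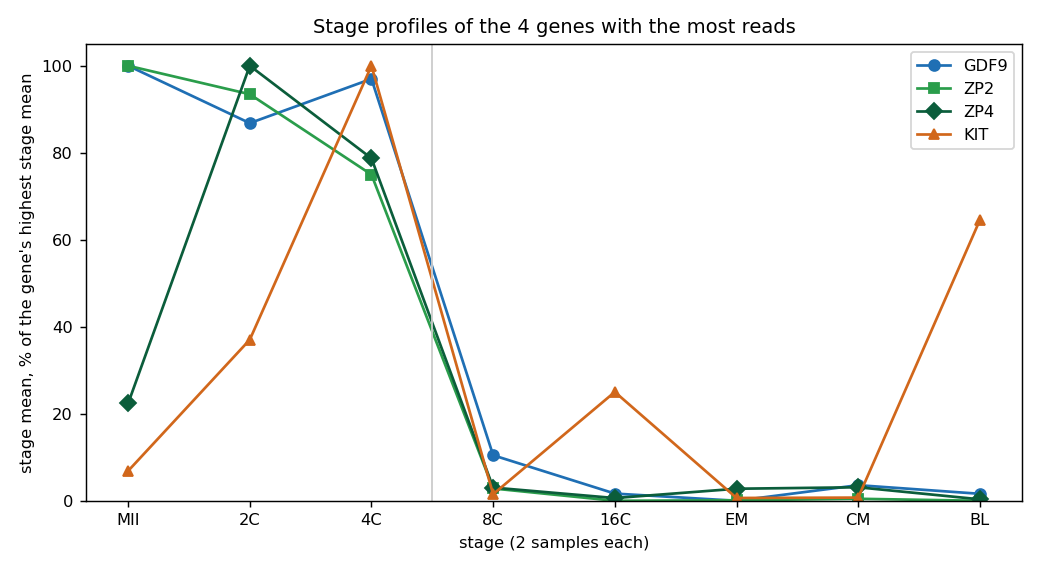
Stage mean (n = 2) of *GDF9*, *ZP2*, *ZP4* and *KIT* as a percent of the gene's own highest stage mean. On the authors' scale *GDF9* and *ZP2* are highest in MII, which does not hold in CPM, *ZP4* in 2C and *KIT* in 4C, and of the 4 genes *KIT* alone has high means after 8C, at 16C and BL.

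The first comparison asked how the genes differed before and after EGA. Differences are given on the scale of log2(normalised value + 1), which understates the change of low genes, and adjusted p-values are from limma over all loci tested. Of the 8 genes, 4 passed the filter on low counts, and *ZP3*, *FIGLA*, *NOBOX* and *BMP15* did not. Among the 4, *GDF9*, *ZP2* and *ZP4* were lower after EGA, where 29.9% of the 6910 loci tested were called lower and 66.8% were called in either direction. Loci such as these passed the filter through their reads before EGA. *ZP2* fell by 7.65 ± 0.62 (SE, adjusted p = 1.2e-09), *GDF9* fell by 5.22 ± 0.61 (adjusted p = 2.1e-07) and *ZP4* fell by 5.18 ± 0.64 (adjusted p = 4.9e-07). In these 3 genes all 10 later libraries lay below all 6 earlier ones, which held for 14.1% of the loci tested. *KIT* had a difference of -2.43 ± 1.08 (adjusted p = 0.052), which missed the threshold, and its mean went from 72.5 ± 71.1 to 27.9 ± 40.7. Its call turned on single libraries: without MII replicate 2 the difference was -3.09 (adjusted p = 0.018), and without BL replicate 1 or 2 it was -2.85 (adjusted p = 0.020 for either), while without 4C replicate 1 it was -1.98 (adjusted p = 0.13). With DESeq2 it was -1.37 (adjusted p = 0.33), with edgeR -1.64 (0.15), with total reads -2.12 (0.11) and with the 8C embryos left out -2.02 (0.12). Over all loci the median difference was 0.23, and scaling by total reads moved it to 0.68.

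The second question was how the stages differed within the model of all 8. An effect of stage was called for *ZP2* (adjusted p = 4.6e-07), *ZP4* (adjusted p = 6.3e-05), *KIT* (adjusted p = 1.2e-04) and *GDF9* (adjusted p = 2.7e-04), 4 of the 5 genes tested against 66.7% of 9670 loci. *ZP3* had an adjusted p of 0.059.

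Between MII and 4C, before EGA, *KIT* rose, and none of the zona and growth factor genes tested passed the threshold. *KIT* was higher in 4C by 4.06 ± 1.02 (adjusted p = 0.025), a ratio of means of 14.6, and was the 1 gene called of the 5 tested, where 8.68% of all loci were called and 6.48% were called higher. This call was lost with a pseudocount of 0.5 (adjusted p = 0.051). It was also lost without MII replicate 2 (difference 2.98), 4C replicate 1 (3.66) or 4C replicate 2 (4.45). In those fits 1 stage kept 1 sample, and far fewer of all loci were called as well. *ZP4* had a ratio of 3.52 and a difference of 1.83 ± 1.02 (adjusted p = 0.28), which was called when only MII and 4C entered the fit (adjusted p = 0.048). For *ZP2* the difference was -0.40 ± 0.83 and for *GDF9* -0.04 ± 1.16. Relative to this, the median of all loci was 0.15, and 0.69 when libraries were scaled by total reads, under which the differences of *ZP2* and *GDF9* became 0.36 and 0.71 and those of *ZP4* and *KIT* 2.58 (adjusted p = 0.15) and 4.70 (adjusted p = 0.016). In 2C against MII, a comparison added after the data were seen, 0 of the 5 genes were called by limma against 1.42% of loci. There *ZP4* differed by 2.19 and a ratio of 4.47 (adjusted p = 0.30), and *KIT* by 2.55 and a ratio of 5.40 (adjusted p = 0.21). With total reads these differences were 3.07 (adjusted p = 0.11) and 3.31 (adjusted p = 0.099).

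From 4C to 8C, across EGA, the growth factor, zona and receptor genes tested were all lower. The 5 were called lower in 8C, where 19.1% of loci were called lower and 36.8% in either direction. They passed the filter through their reads at other stages than 8C, so the count is a description. *KIT* fell by 5.95 ± 1.02 (adjusted p = 5.7e-04) to 1.52% of its 4C mean, *ZP4* fell by 5.74 ± 1.02 (adjusted p = 7.9e-04) to 3.86%, and *ZP2* fell by 4.89 ± 0.83 (adjusted p = 5.4e-04) to 3.78%. These 3 calls held when any 1 library of the 2 stages was left out. *GDF9* fell by 4.33 ± 1.16 (adjusted p = 0.0098) to 10.8%, a call that was lost without 8C replicate 1 (difference -2.12, adjusted p = 0.14), without 4C replicate 1 (adjusted p = 0.083) and when only the 2 stages entered the fit (adjusted p = 0.097). *ZP3* fell by 2.81 ± 1.06 (adjusted p = 0.049), a call that was lost without 4C replicate 1, 4C replicate 2 or 8C replicate 1 (adjusted p up to 0.29) and under 6 other settings, among them edgeR (adjusted p = 0.16) and DESeq2 (adjusted p = 0.20) on the recovered reads.

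The 2 libraries of 8C differed in how much of each message was left, and replicate 2 held more *GDF9*, *ZP2* and *ZP4*. As a percent of the 4C mean, *GDF9* was at 0 in replicate 1, where the floor allows up to 5.65%, and at 21.6% in replicate 2. *ZP4* was at 0 (floor 2.27%) and 7.72%, *KIT* at 0 (floor 3.58%) and 3.03%, and *ZP2* at 1.501% and 6.05%. *ZP3* was at 0 (floor 42.0%) and 17.8%. The values of *KIT* and *ZP3* in replicate 2 were thus below the floor of replicate 1, and a difference between the libraries was not detectable at this depth. Oocyte markers moved with this split. The linker histone gene *H1FOO* stood at 0.932% and 48.8% of its 4C mean, *NLRP5* at 3.86% and 36.9%, *BTG4* at 0.616% and 18.4% and *ZAR1* at 0 and 30.9%. *DPPA3* differed less, at 34.2% and 49.1%. Genes of the later embryo were split, most of them on few reads. In replicates 1 and 2 *KRT18* had 14.4 and 0 normalised reads (8 and 0 reads) and *GATA3* 9.01 and 3.44 (5 and 3 reads). *KRT8*, *GATA2* and *CDX2* were also higher in replicate 1, on 4, 5 and 1 reads. *NANOG* was at 7.21 and 84.9 (4 and 74 reads) and *SOX2* at 1.80 and 8.03 (1 and 7 reads). The part of this difference between the 2 embryos in the 8C results was not tested beyond leaving out each library.

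**Figure D3:**
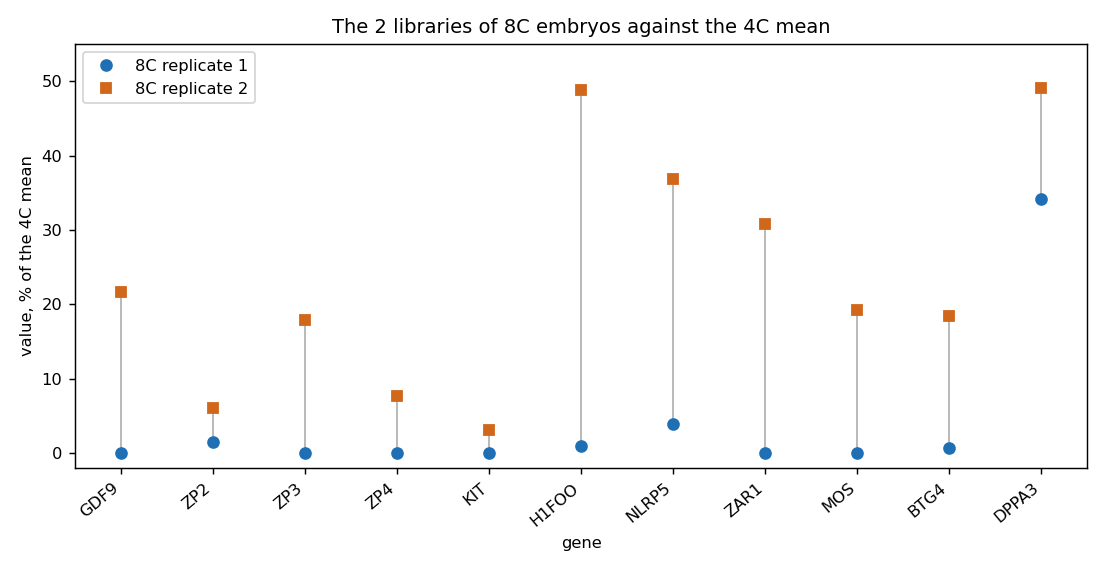
Value in 8C replicate 1 (circles) and 8C replicate 2 (squares) as a percent of the 4C mean, for the 5 genes tested and 6 other oocyte genes. Points at 0 had no reads, and for *KIT*, *ZP3* and *MOS* the value of replicate 2 lies below the floor of 3 reads in replicate 1. The other 8 genes are higher in replicate 2, as in *H1FOO* with 48.8% against 0.932%.

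From 8C to 16C 0 of the 5 genes were called by limma, and 0.858% of loci were. Without adjustment 2 passed 0.05, *ZP2* with -3.59 (adjusted p = 0.054) and *KIT* with 3.80 ± 1.02 (adjusted p = 0.080). The difference in *ZP2* was called by DESeq2 (adjusted p = 0.026), and edgeR called 0. Without 8C replicate 1 the differences were -4.51 in *ZP2* and -2.75 in *ZP4*. In that fit 8C kept 1 sample, and calls over all loci also rose.

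Between CM and BL, also a comparison added after the data were seen, *KIT* rose by 5.78 ± 1.02 (adjusted p = 0.0035) and was the 1 gene of the 5 that was called, against 2.92% of loci called higher and 4.42% in either direction. Both BL libraries were above both CM libraries, and the 4 libraries of EM and CM held 0, 5, 2 and 0 reads of *KIT*. The call was lost without CM replicate 2 (difference 4.94) and without BL replicate 2 (5.79). In those fits 1 stage kept 1 sample, and fewer of all loci were called as well. Several markers of trophectoderm and inner cell mass moved with *KIT*, and others did not. The 8 markers summed to between 15.0 and 151 in CM and to 1364 and 1356 in BL, where 7 of the 8 had reads and *CDX2*, a defining trophectoderm gene, had 1 read in the whole series. *KRT18* was at 401 and 396 in BL, against 55.4 and 0 in CM, and *SOX2* was at 1.01 and 1.58 in BL, against 13.3 and 0 in CM. In 16C, replicate 2, the library with more *KIT*, had 112 of *KRT18* and 100 of *KRT8*, against 16.3 and 5.44 in replicate 1, and *NANOG* was at 4.35 and 0 in 16C, against 7.21 and 84.9 in 8C. Their part in the *KIT* result was not tested.

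**Figure D4:**
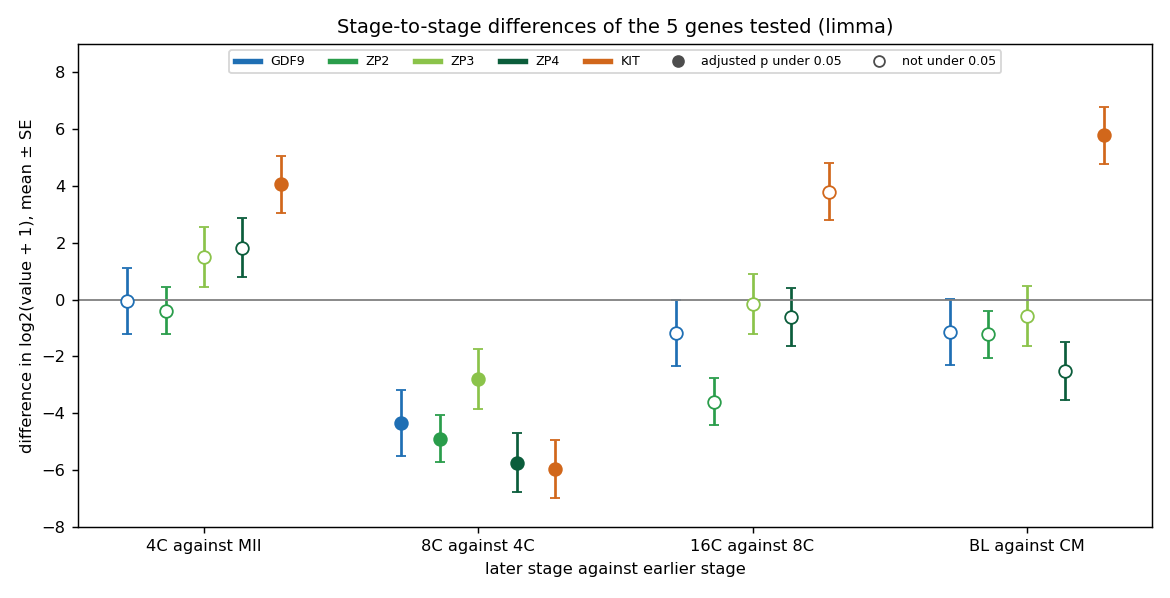
Difference in log2(normalised value + 1) with its SE for the 5 genes tested, in 4 comparisons of a later with an earlier stage. Filled points have an adjusted p under 0.05: all 5 in 8C against 4C, and *KIT* alone in 4C against MII (4.06) and in BL against CM (5.78).

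Over the 16 libraries, *GDF9*, *ZP2* and *ZP4* had similar profiles, with Pearson r on the log2 scale of 0.93 for *GDF9* and *ZP2*, 0.89 for *ZP2* and *ZP4* and 0.88 for *GDF9* and *ZP4*. *KIT* correlated with *ZP2* at 0.33, and with *FIGLA* at 0.75. These values describe 16 libraries in which the genes share library, depth and stage, and they carry no test. Among 9091 named loci the profiles most like *ZP2* were those of *CHL1* (r = 0.99), *KPNA7* (0.99) and *RNF148* (0.98), and those most like *GDF9* were *OOSP1*, *EIF4E1B* and *DIRAS2* (0.96 each). *KPNA7* encodes a nuclear import receptor of the egg, *EIF4E1B* an oocyte form of the cap-binding protein and *OOSP1* an oocyte-secreted protein. The nearest to *ZP4* were *BLM* (0.96), *ARL6* (0.95) and *C8H9orf93* (0.95), and to *ZP3* *C1H3orf38* (0.89), *RASL10A* (0.89) and *PATL2* (0.87). For *KIT* they were *SH3BP5* (0.92), *KIAA0182* (0.89) and *FKBP9* (0.89). *FIGLA* was nearest to *WNT2B* (0.91), *ITSN2* (0.90) and *NOL4* (0.89), and *NOBOX* to *IFT74* (0.92), *ACADSB* (0.87) and *CORIN* (0.86), on 60 and 57 reads.

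Receptors and SMADs of the transforming growth factor beta family were compared in the same way. The list is wider than the genes through which GDF9 and BMP15 signal, so its counts are not counts of those genes. *TGFBR1* was below the filter, with 5.73 ± 3.74 before EGA and 0.836 ± 1.17 after it. Of 17 receptor and SMAD genes, 12 were tested, 9 were lower and 2 higher, where 29.9% of all loci were called lower and 36.9% higher, with a median difference of -1.62 against 0.23 over all loci. Some of those lower, such as *BMPR1B*, passed the filter through their reads before EGA. With scaling by total reads 5 were lower, beside 23.0% of all loci. *BMPR1B*, a type I receptor, went from 40.6 ± 7.40 to 1.14 ± 1.32 (difference -4.49 ± 0.44), and *BMPR2*, the type II receptor that GDF9 and BMP15 share, from 52.5 ± 20.1 to 5.29 ± 5.95 (difference -3.48 ± 0.54). The rises were in *SMAD4*, the common SMAD, by 1.81 and in *ACVR2B*, an activin receptor, by 1.47. The call of *ACVR2B* was lost with edgeR (adjusted p = 0.17), DESeq2 (0.066) and the 8C embryos left out (0.064), and without MII replicate 1 (0.056), MII replicate 2 (0.095) or 2C replicate 1 (0.075).

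Among genes that process these growth factors or act on the zona or egg surface, 8 of 9 were found, 3 were tested, 1 was lower and 1 higher, close to the 29.9% and 36.9% of all loci, with a median of -0.90. The 2 called are not zona enzymes. *ZAR1*, an RNA-binding protein of the oocyte, fell by 5.13, and *CD9*, a tetraspanin of the egg membrane and of many other cells, rose by 5.80, from 3.70 ± 3.22 to 363 ± 350. *FURIN*, a protease that cleaves precursors of this growth factor family, had a difference of -0.90 (adjusted p = 0.19). *ASTL*, whose product cuts ZP2 after fertilisation, was below the filter, and without the filter it was called lower (difference -4.73, adjusted p = 5.2e-08), as was *OVCH1* (-1.75, adjusted p = 0.011). The mean of *ASTL* was 17.5 in MII, 44.2 in 4C and 0 in 8C and BL, and it had 272 reads in the 6 libraries before EGA and 1 read in the 10 after it.

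In the KIT pathway 12 of 13 genes were found and 6 were tested, of which 2 were lower and 2 higher, close to the 29.9% and 36.9% of all loci, with a median of -0.15. The lower ones were *FOXO1* (difference -4.24 ± 0.57) and *FOXO3* (-3.78 ± 0.60), transcription factors held in check by this pathway, and the higher ones *GRB2* (2.88), an adaptor, and *TSC2* (1.41). The call of *TSC2* was lost with no filter (adjusted p = 0.061) and without either replicate of MII, 2C, CM or BL or without EM replicate 2 (adjusted p = 0.052 to 0.11). *KITLG*, the ligand, was below the filter, with a mean of 3.68 ± 2.86 before EGA and 3.55 ± 3.68 after it. *PIK3R1* was also below the filter, and in the limma fit without the filter it was called lower (difference -4.24, adjusted p = 3.6e-05).

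Of 10 other oocyte transcription factor genes 3 were tested, 2 were lower and 1 higher, beside 29.9% and 36.9% of all loci, with a median of -2.84. *LHX8* fell by 4.42 and *SOHLH2* fell by 2.84, both factors of early oocyte growth, and *POU5F1*, the pluripotency factor, rose by 3.53, from 346 ± 86.7 to 4273 ± 1967. The 2 lower genes passed the filter mainly through their reads before EGA, so the count is a description. In the subcortical maternal complex, an assembly of egg proteins near the membrane, 1 of 7 genes was tested, having passed the filter through its reads before EGA, beside 29.9% of all loci called lower. This gene, *KHDC3L*, fell by 5.19, from 70.8 ± 31.7 to 7.72 ± 23.5 with 74.6 in 8C replicate 2, a call that DESeq2 did not make (difference -3.20, adjusted p = 0.081). The summed value of its 7 genes lay between 119 and 195 before EGA, at 1.80 and 95.2 in the 8C libraries and at or below 5.54 later. It thus split the 8C libraries in the same direction as *GDF9* and the zona genes.

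Marker lists of the cells that could be present were read in the same way. Of 8 oocyte markers, of which *GDF9* and *BMP15* are 2, 5 were tested and all 5 were lower, beside 29.9% of all loci. Some, such as *GDF9*, passed the filter through their reads before EGA, so the count is a description. Their median was -5.22, and *H1FOO* fell by 8.66 and *BTG4* fell by 8.35. Of 18 cumulus and granulosa markers 5 were tested, 2 were lower and 2 higher, near the 29.9% and 36.9% of all loci, and the median was -1.20. Of those lower, *HAS2* passed the filter through its reads before EGA. *HAS2*, an enzyme of the cumulus matrix, fell by 6.96 and *STAR* fell by 1.30, and *SERPINE2* rose by 3.38 and *LHCGR* by 1.80, a call lost without MII replicate 2 (adjusted p = 0.072) or 4C replicate 1 (0.053). The defining granulosa genes *AMH*, *INHA* and *FOXL2* were at 0 in all libraries, *FSHR* averaged 16.7 in MII, and *CYP19A1*, the aromatase of granulosa cells, averaged 21.3 before EGA and 3.98 after it. The 18 genes summed to between 1280 and 2671 before EGA and between 477 and 1144 after it, a sum that *STAR* dominated with means of 1698 and 685. Of the genes tested *HAS2* and *STAR* moved in the direction of *GDF9*, and *SERPINE2* and *LHCGR* did not. Without the filter *FSHR* (-2.78, adjusted p = 1.4e-05), *CYP19A1* (-2.59, adjusted p = 0.0028) and *PTX3* (-1.29, adjusted p = 7.3e-05) were also called lower. Their part in these results was not tested. Of the 8 trophectoderm and inner cell mass markers 5 were tested, and *KRT18* (4.21) and *NANOG* (4.03) were higher, near the 36.9% of all loci, with a median of 1.12 over the list.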

How the data were processed

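Total RNA of single oocytes and embryos was amplified in 2 rounds, and libraries were sequenced on the SOLiD platform. The submitters' processing notes name cutadapt, FastQC, TopHat, Cufflinks and HTSeq, and the genome build and strand setting are not given in the sources used here. The values deposited by the authors are a signal, read counts divided by a size factor per library. In every library 100% of the values were whole multiples of 1 step (tolerance 0.01 reads), so reads were recovered. Molecules amplified from 1 template could not be told apart. No sample column was unused (0).

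The main test was limma 3.58.1 (R 4.3.3) with a trend on log2(value + 1), over loci kept by edgeR's filterByExpr, with Benjamini-Hochberg adjustment at 0.05 over all of them. The design had also named edgeR in case the table held raw counts. A single model of 8 stages gave the stage contrasts. Alternatives were TMM and total-read scaling, pseudocounts of 0.5 and 5, no filter, edgeR 4.0.16 and DESeq2 1.42.0 on recovered reads, a replicate block, the compared stages alone, 8C left out, and each library left out. Contrasts of 2C with MII and of BL with CM, 2C in place of 4C, and means without 8C replicate 2 were added after the data were seen. Before and after EGA, edgeR called 4393 of 6910 loci and limma 4619. Named genes were the 8 members, the 2 largest falls and rises among called genes of each list, the markers needed for a check, and the 3 loci most correlated with each member. *ASTL*, *OVCH1*, *FURIN*, *KITLG*, *TGFBR1* and *PIK3R1*, and the split of the 8C libraries, were picked after their values were seen. The members and lists were chosen with earlier results of these data known.

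Libraries of a stage differed by 18.6 to 181 times the counting noise (chi-square per degree of freedom), so none were duplicates. Same-numbered samples are different oocytes or embryos. Their deviations from stage means correlated at -0.26 to 0.13 over 28 pairs of stages, so the numbers do not pair samples. The test was checked on simulated counts, with changes planted only in well-read loci. The spread was set to be the same for every locus, and no other differences between stages were simulated. The rates given hold for that setting only. They do not describe *ZP3*, *FIGLA* and *NOBOX*, which had fewer reads than the loci changed. After against before EGA, 98% of 8-fold and 64.3% of 4-fold changes were found (7026 loci, 7 false calls). For 8C against 4C 46% of 16-fold changes were found (8609 loci, 6 false calls), and for BL against CM 38% (8622 loci, 3 false calls). Gene neighbours came from a table of assembly ARS-UCD2.0, in which none of the 8 genes overlaps another.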

Additional observations from a re-analysis of the deposited data

Results flagged for a closer look

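In the 10 libraries after EGA, *GDF9* in 8C replicate 2 had 20.6 normalised reads, far above the next highest library, which had 3.75. In the same library *ZP2* had 21.8, and the next highest, 8C replicate 1, had 5.40. The third such value was *FIGLA* in BL replicate 1, with 3.04 against 1.58 in BL replicate 2, which rests on 3 reads and 1 read. Each was set apart because its gap to the nearest library was too large a share of the range of the 10. The rule is set to mark about 1 in 20 groups by chance, for normally distributed values with a common mean. The groups here pool the stages of a period, and after EGA many of their libraries had no reads, so that rate does not hold. Of 14 groups tested, 3 were set apart, a count that cannot be compared with chance.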

How the results depend on the processing

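The falls of *GDF9*, *ZP2* and *ZP4* after EGA kept their direction and call under all 9 other settings and all 16 omissions of 1 library (differences of -5.79 to -3.73, -8.32 to -5.95 and -5.53 to -4.16). The number called was 6 with no filter in place of 3, since *ZP3*, *FIGLA* and *NOBOX* were then tested (20.2% of loci were lower in that fit), and 3 to 4 with a library left out (27.8% to 30.4%). For the effect of stage it was 4 of 5 tested, and 4 to 5 with other settings, beside 5940 to 6655 of 9670 loci. With no filter it was 5 of 7, beside 6950 of 18318 loci. With a library left out 1 stage kept 1 sample and mostly 7 genes were tested, so those counts are not compared. For 4C against MII it was 1 (6.48% of loci were higher), and 0 with a pseudocount of 0.5 (6.65%). It was 2 with those stages alone (9.91%) and 0 with 2C in place of 4C (1.2%). With a library left out, so that 1 of the stages kept 1 sample, the difference in *KIT* was 2.98 to 5.13. For 8C against 4C it was 5, and 3 with those stages alone (14.9% of loci lower) and 4 to 7 with a library left out (8.3% to 18.5%). For 16C against 8C it was 0 (0.31% of loci were lower), and 1 with DESeq2 (0.786%). Without 8C replicate 1, so that 8C kept 1 sample, calls rose among these genes and over all loci alike. The causes of these changes were not tested.

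Differences that missed the threshold and changed sign were *GDF9* in 4C against MII (0.021 with TMM, 0.71 with total reads, 0.04 with edgeR, and -0.41 to 0.33 with a library left out), *ZP2* there (0.36 with total reads), and, with a library left out, *GDF9* (-3.39 to 1.05), *ZP3* (-1.03 to 0.69) and *ZP4* (-2.75 to 1.53) in 16C against 8C. The replicate block gave 3, 5, 1, 5 and 0 called in the order above. Among the 8 genes it changed 1 call, the effect of stage on *ZP3* (adjusted p = 0.033), and among the other lists that of *ACVR1* after EGA (adjusted p = 0.053). The *ZP3* effect was also called with a pseudocount of 5 and without MII replicate 1, 8C replicate 2 or EM replicate 2 (adjusted p = 0.022, 0.044, 0.042 and 0.049). For 2C against MII alone, where same-numbered samples deviated in opposite directions, pairing the numbers crosswise called 2 loci. *KIT* after EGA was also called with TMM (adjusted p = 0.044) and without 16C replicate 1 or 2 (adjusted p = 0.049 and 0.029). Summing loci of a name was not run, since each name had 1. In simulated counts, with 2 libraries a stage, 2% of 4-fold changes were found in 8C against 4C and in BL against CM. *ZP3*, *FIGLA* and *NOBOX* had fewer reads than the loci changed there.

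Of the other lists, with no filter 5 of the 5 subcortical complex genes with reads were lower (1 of 1 tested with it). So were 7 of the 7 oocyte markers with reads, 5 cumulus markers and 3 of 8 processing and zona genes, beside 20.2% of 18318 loci. In the same fit 9 of 17 receptor and SMAD genes, 4 of 10 oocyte transcription factor genes and 3 of 11 KIT pathway genes were lower. In these last lists 2, 2 and 1 genes were higher, beside 18.4% of loci. The receptor and SMAD list had 5 lower with total reads and 7 to 9 with a library left out. With the 8C embryos left out 1 oocyte transcription factor gene was lower in place of 2, since *LHX8* was then not tested, and DESeq2 called 4 trophectoderm and inner cell mass markers higher in place of 2.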
